A study of Mus musculus with 24 samples.

Results

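The bipolar cell identity genes described here are 10 mouse genes, 7 of them coding for transcription factors of retinal bipolar cells (Vsx1, Irx5, Irx6, Lhx4, Isl1, Bhlhe23 and Prdm8) and 3 for calcium-binding proteins or a kinase used as bipolar cell markers (Scgn, Cabp5 and Prkcb). They were found as the rows of the count tables whose Ensembl mouse gene identifier has one of these symbols. Each symbol matched 1 row, so the set is 10 of 46603 Ensembl genes and of 126602 counted features in all. All 10 passed the filter on low counts, which asked for 10 or more normalized counts on average over the 24 organoids. Bhlhe23, at 12.1, was the member closest to that limit, and its counts came mostly from D25 and D30. It averaged 3.33 and 1.17 raw counts at D20 and D22, and 10.5 and 36 at D25 and D30. Vsx1 likewise averaged 3.67 and 7 raw counts at D20 and D22, and 84 and 176.7 at D25 and D30. Bhlhe23 and Vsx1 thus passed the filter through the later groups, and their rises are not independent of that filter.

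Mouse retinal organoids (MROs) are small cultured retinas that form from aggregates of stem cells. Those used here came from the mouse embryonic stem cell line E14Tg2a, which the labels give as wildtype, with the genotype Control and only water added as solvent in every group. Whole organoids, divided by hand early in culture and kept as separate pieces, were sampled singly at D20, D22, D25 and D30, with 6 organoids per timepoint. All came from 1 line and 1 independent experiment, so the p-values below measure the spread between organoids of that experiment.

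Reads counted on a feature numbered between 13634846 and 19477108 per organoid, and 3 counts corresponded to at most 0.22 normalized CPM (read counts relative to library sizes scaled with TMM). The 6 genes taken as markers of retina, among them Rax, Six6 and Crx, were measured at every timepoint, with sums of 895 to 1905 CPM per organoid. The sum of 7 genes of cortex type neurons was the most uneven, from 8.65 CPM in D30 replicate 6 to 391 CPM in D25 replicate 1. In whole organoids, fewer cells of a type and less RNA per cell cannot be told apart.

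Bipolar cells are the interneurons that carry signals from photoreceptors to ganglion and amacrine cells. Rod bipolar cells and ON cone bipolar cells respond to the glutamate of photoreceptors through the receptor mGluR6, while OFF cone bipolar cells use ionotropic glutamate receptors. In the mouse they are among the last retinal cell types to be born, and homeobox, bHLH and PRDM factors act in their specification into subtypes, while calcium-binding proteins and kinases mark subtypes of mature cells.

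Between D20 and D30, 6 of the 10 identity genes rose (Vsx1, Bhlhe23, Prdm8, Scgn, Cabp5 and Prkcb) and none fell, at a Benjamini-Hochberg adjusted p below 0.01 in edgeR. DESeq2 called 7, with Isl1 added. Of all 46949 features tested, 13.9% were higher and 13.0% were lower in this comparison. These features include 30696 assembled loci, while all members are annotated genes. Of the 16253 annotated genes tested, 25.1% were higher and 16.7% lower. The median log2 fold change was 1.99 over the 10 genes, -0.04 over all features and 0.10 over annotated genes. Some of these genes were picked in the study from the same organoids, and the set was put together with results known, so the count is not independent evidence of its direction. Bhlhe23 and Vsx1, moreover, passed the count filter through their later groups.

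The rises did not all come at the same step. No member passed the threshold from D20 to D22, where 1.62% of all features were higher and 0.285% lower, although 4 had an unadjusted p below 0.05 and DESeq2 called 1, Isl1, lower. From D22 to D25, 4 rose (Vsx1, Scgn, Cabp5 and Prkcb), against 3.08% of all features higher and 2.19% lower. Vsx1, 1 of these 4, passed the count filter through D25 and D30. From D25 to D30, 3 rose (Isl1, Scgn and Cabp5), against 1.76% higher and 1.75% lower. Scgn and Cabp5 were thus called in both of the later steps. A joint test of the 4 timepoints called 7 members (these 6 and Isl1) and 27.2% of all features, and left out Lhx4, Irx5 and Irx6. Over annotated genes, the shares higher and lower were 2.56% and 0.763% from D20 to D22. They were 7.33% and 2.92% from D22 to D25, and 4.55% and 2.83% from D25 to D30. The joint test called 43.9% of annotated genes.

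**Figure D1:**
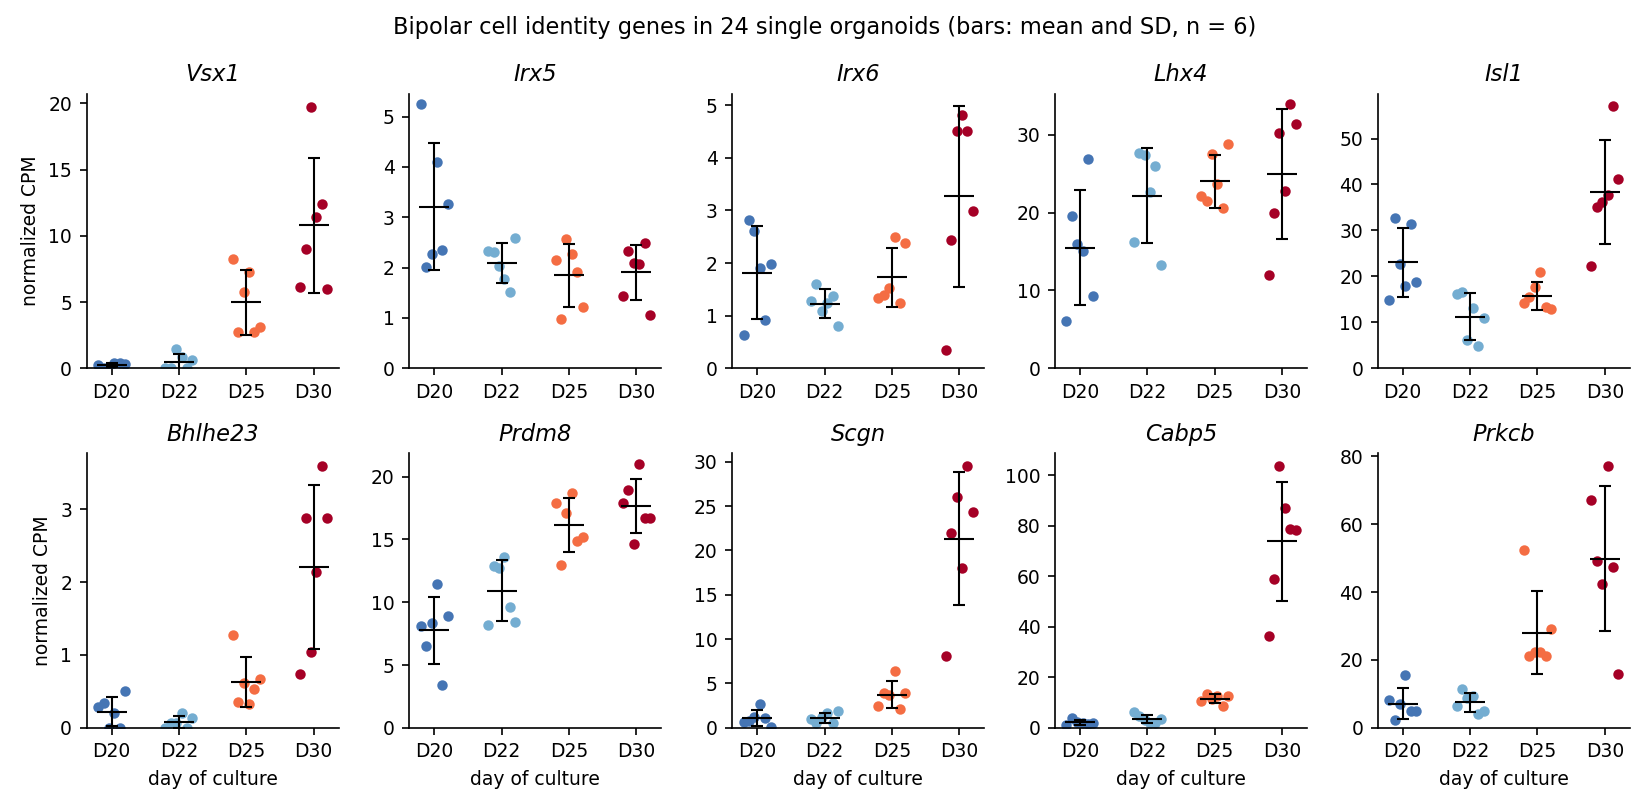
Normalized CPM of the 10 genes (y axis, one scale per gene, from 0) in each of 24 organoids by day of culture, with points for single organoids and black bars for the mean and SD of 6. Cabp5 and Scgn at D30 lie above every earlier organoid, Lhx4 and Irx5 overlap throughout, and 1 D30 organoid of Irx6 lies at 0.343 CPM.

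Separation of the organoids gave a like picture. All 6 organoids of D25 lay above all 6 of D22 for 5 members (Vsx1, Bhlhe23, Scgn, Cabp5 and Prkcb), an order found in 3.17% of all features. All 6 of D30 lay above all 6 of D25 for 3 members (Isl1, Scgn and Cabp5), against 2.14% of all features. For D30 above D20 it was 6 members, the ones called, against 9.60%. These shares are over all features, assembled loci included. Bhlhe23 and Vsx1, counted here for D25 and D30, passed the count filter through those same groups.

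Vsx1 (ENSMUSG00000033080, chr2:150680702-150689360, minus strand, GRCm38 as for all positions here) encodes a paired-like homeodomain factor of cone bipolar cells. At D20 its lowest organoid was at 0 CPM, the median at 0.30 and the highest at 0.427, and at D22 these were 0, 0.299 and 1.42, with 3 organoids at 0. At D25 they were 2.72, 4.43 and 8.28 CPM, and at D30 they were 5.99, 10.2 and 19.8. The groups therefore split between D22 and D25 with no overlap, and D25 and D30 overlapped. The rise from D22 to D25 was 3.38 ± 0.58 (log2 fold change ± SE, adjusted p = 0.000254), and that from D25 to D30 was 1.11 ± 0.48 (adjusted p = 0.194). The call from D22 to D25 is not independent of the count filter, which Vsx1 passed through the later groups.

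Irx5 and Irx6, Iroquois homeodomain factors of OFF cone bipolar subtypes, are neighbours, 298001 bp apart with 1 annotated gene between them. Irx5 is ENSMUSG00000031737, chr8:92357625-92376286, plus strand, and Irx6 is ENSMUSG00000031738, chr8:92674288-92680956, plus strand. Neither passed the threshold in any comparison. Irx5 had a lowest, median and highest level of 2.02, 2.81 and 5.24 CPM at D20, of 1.51, 2.16 and 2.59 at D22, of 0.976, 2.02 and 2.57 at D25 and of 1.05, 2.07 and 2.48 at D30. All 4 groups overlapped, and D20 alone had organoids above 2.59 CPM. Its log2 fold change from D20 to D30 was -0.75 ± 0.30 (adjusted p = 0.0458), the only negative one of the 10.

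Irx6 had 0.629, 1.95 and 2.82 CPM at D20, 0.798, 1.26 and 1.61 at D22, 1.25, 1.46 and 2.49 at D25, and 0.343, 3.75 and 4.82 at D30. Its log2 fold change was 0.84 ± 0.40 (adjusted p = 0.102). In 3 of 6 organoids of D30, Irx6 lay between 4.50 and 4.82 CPM, and in replicate 1 it lay below every organoid of the other timepoints. Without that organoid the log2 fold change was 1.09 (adjusted p = 0.0121). Irx5 and Irx6 thus had point estimates of opposite sign, and the difference between them was not tested. An annotated antisense gene, Gm45505, shares 152 bp with the exons of Irx6 (4.51%), and whether counting used strand is not known.

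Lhx4 and Isl1 encode LIM homeodomain factors, Lhx4 of cone bipolar cells and Isl1 of ON bipolar cells, with Isl1 also known in ganglion cells and cholinergic amacrine cells. Lhx4 is ENSMUSG00000026468, chr1:155698031-155751684, minus strand. It was measured in all 24 organoids, with medians of 15.6, 24.3, 22.9 and 26.5 CPM at D20, D22, D25 and D30. The lowest and highest organoids were at 6.01 and 27.0 CPM at D20, 13.2 and 27.7 at D22, 20.6 and 28.8 at D25, and 11.9 and 33.9 at D30, so the groups overlapped over most of their range. The log2 fold change from D20 to D30 was 0.69 ± 0.26 (adjusted p = 0.0326), and it passed the threshold in the fits that left out D20 replicate 5 (0.92, adjusted p = 0.00494) or D30 replicate 1 (0.84, adjusted p = 0.00724).

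Isl1 (ENSMUSG00000042258, chr13:116298281-116309689, minus strand) had its lowest mean at D22. Its lowest, median and highest organoids were at 14.8, 20.8 and 32.8 CPM at D20, at 4.75, 12.0 and 16.6 at D22, at 12.8, 14.8 and 20.9 at D25, and at 22.3, 37.0 and 57.2 at D30. Every organoid of D30 lay above every organoid of D22 and D25, while D20 and D30 overlapped. From D20 to D30 the estimate was 0.73 ± 0.24 (adjusted p = 0.0179), short of the threshold in edgeR. DESeq2 called Isl1 higher in that comparison (0.79, adjusted p = 0.00441). The log2 fold change was -1.03 ± 0.25 from D20 to D22 (adjusted p = 0.0122), short of the threshold, and Isl1 rose by 1.29 ± 0.25 from D25 to D30 (adjusted p = 0.000900).

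The genes of other cell types that use Isl1 moved as follows. Of 7 ganglion cell genes, 5 fell from D20 to D30 and none rose. From D25 to D30, the step at which Isl1 rose, 3 fell and 1, Nefl, rose (1.25 ± 0.30, adjusted p = 0.00697). Pou4f2, a factor that acts with Isl1 in ganglion cells, fell from 6.62 ± 2.03 to 0.464 ± 0.337 CPM (SD, n = 6), and the summed level of the list ranged from 125 to 238 CPM at D20, from 75.7 to 138 at D22, from 68.3 to 132 at D25 and from 58.4 to 255 at D30. Most of that sum at D30 was Nefl, which alone averaged 149 ± 77 CPM (SD) where the list averaged 174. At D25 Nefl averaged 62.6 ± 28.2 CPM and the list 98.6. Of the defining genes of cholinergic amacrine cells, Chat, Slc18a3 and Slc5a7 averaged at most 0.443 CPM at any timepoint and failed the count filter. The part of ganglion cells in the level of Isl1 was not tested.

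Over equal spans, the change of a gene from D25 to D30 was set against its change from D20 to D25. No member passed, against 0.368% of all features above and 1.65% below (0.892% and 2.98% of annotated genes). By unadjusted p, 3 members were below 0.05, and DESeq2 called 1, Isl1. The contrast was 1.84 ± 0.44 for Isl1 (adjusted p = 0.0111) and -3.17 ± 0.90 for Vsx1 (adjusted p = 0.0364). A positive value means a more upward change in the later span, whatever the size of each change. For Isl1 the mean went down in the earlier span, from 23.1 to 15.7 CPM, and up to 38.3 CPM in the later. When only the 3 timepoints involved were fitted, both passed (adjusted p = 0.00212 for Isl1 and 0.00482 for Vsx1).

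Bhlhe23 and Prdm8 act in rod bipolar cells, the first a bHLH factor of their maturation and the second a PRDM family repressor needed by rod bipolar and some OFF cone bipolar cells. Bhlhe23 is ENSMUSG00000045493, chr2:180774381-180776900, minus strand, with 1 exon. It had the fewest counts of the set: its 6 organoids of D22 held 7 reads in all, none with more than 3, and those of D25 and D30 held 63 and 216. Per counted read the level at D25 was 8.03 times that at D22 (exact 95% interval 3.68 to 20.8, counting error only), and at D30 it was 26.2 times (12.5 to 65.9). The lowest, median and highest organoids were at 0, 0.239 and 0.512 CPM at D20, at 0, 0.0687 and 0.205 at D22, at 0.332, 0.573 and 1.27 at D25 and at 0.742, 2.50 and 3.59 at D30.

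All organoids of D25 and D30 were above the highest at D22, 0.205 CPM, while the highest at D20 reached 0.512. From D20 to D30, Bhlhe23 rose by 3.26 ± 0.66 in log2 units (adjusted p = 0.000192). The count filter was passed through the later groups, so this call is not independent of it. From D22 to D25 the estimate was 2.88 ± 0.74 with an adjusted p of 0.0101, just outside the threshold, and 6 of the 24 fits that left out 1 organoid put it inside. DESeq2 called Bhlhe23 in this step (3.025, adjusted p = 0.00179). Its one annotated neighbour that shares exon sequence is Gm14343, on the same strand, over 144 bp (5.71% of its exon length).

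Prdm8 (ENSMUSG00000035456, chr5:98167198-98188991, plus strand) had the most even levels of the set at D25 and D30, with a coefficient of variation of 13.4% at D25 and 12.3% at D30. Its lowest, median and highest organoids were at 3.41, 8.22 and 11.4 CPM at D20, 8.15, 11.2 and 13.6 at D22, 13.0, 16.1 and 18.7 at D25, and 14.7, 17.3 and 21 at D30. Each timepoint overlapped the next, and D20 and D30 did not overlap. Prdm8 rose by 1.18 ± 0.19 in 10 days (adjusted p = 1.28e-05) although no single step passed. An annotated antisense gene, A730035I17Rik, covers 1411 bp of its exons (29.1%), and whether the counting used strand, and so kept reads of the 2 genes apart there, is not known.

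For the promoters, 8 of the 10 members have an entry in the RefSeq table (GRCm38.p6, from 250 bases before to 50 bases after the start site of the RefSeq entry). Irx5 and Irx6 have none. That start site is not always the outer end of the gene given above from GENCODE: the windows of Lhx4, Prdm8 and Prkcb lie wholly inside the gene. The window of Vsx1 lies inside the gene except for its outermost bases. Motif positions are counted from the RefSeq start site. The windows were searched on both strands for TAATCC, a core sequence bound by the photoreceptor and bipolar factors Otx2 and Crx, for TAATTA, the core of many homeodomain proteins, and for CAGCTG, an E-box of bHLH proteins. The windows of Vsx1 and Isl1 are printed 5′ to 3′ on the minus strand to show these letters, with matches in capitals.

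Vsx1, chr2:150689088-150689387: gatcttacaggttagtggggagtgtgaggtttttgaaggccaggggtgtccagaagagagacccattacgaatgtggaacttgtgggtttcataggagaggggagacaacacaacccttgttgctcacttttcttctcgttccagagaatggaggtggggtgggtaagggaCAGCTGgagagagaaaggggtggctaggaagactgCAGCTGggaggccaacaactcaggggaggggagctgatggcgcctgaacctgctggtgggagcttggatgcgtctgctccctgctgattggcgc
Isl1, chr13:116309639-116309938: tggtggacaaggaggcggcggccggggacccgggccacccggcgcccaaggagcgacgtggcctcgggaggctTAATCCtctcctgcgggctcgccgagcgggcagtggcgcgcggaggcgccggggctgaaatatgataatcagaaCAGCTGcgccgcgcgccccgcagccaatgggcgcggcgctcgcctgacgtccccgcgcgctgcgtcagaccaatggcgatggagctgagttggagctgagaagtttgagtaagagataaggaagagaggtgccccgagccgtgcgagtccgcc

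Vsx1 held CAGCTG at -79 and -44 from the start site, both inside the gene as given from GENCODE. Isl1 held TAATCC at -177 and CAGCTG at -103. TAATCC was found in 2 of 8 members (Isl1 and Cabp5) and in 7.06% of 32851 promoters of the same length, CAGCTG in 4 of 8 (Vsx1, Isl1, Prdm8 and Prkcb) and in 16.3%, and TAATTA in 0 of 8 and in 5.29%. A match is a description of the letters and no evidence of binding.

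Scgn and Cabp5 encode EF-hand calcium-binding proteins, secretagogin in cone bipolar cells and CaBP5 in rod bipolar cells and some cone bipolar cells. They were the only members called in 2 consecutive steps. Cabp5 is ENSMUSG00000005649, chr7:13398132-13408887, plus strand, and Scgn is ENSMUSG00000021337, chr13:23953456-23991214, minus strand. For Cabp5, the lowest, median and highest organoids were at 1.26, 1.88 and 4.03 CPM at D20, 1.91, 3.32 and 6.25 at D22, 8.80, 12.0 and 13.5 at D25, and 36.2, 78.4 and 104 at D30. D20 and D22 overlapped, and every later group lay wholly above the one before.

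Cabp5 rose by 1.70 ± 0.26 from D22 to D25 (adjusted p = 6.86e-05) and by 2.67 ± 0.25 from D25 to D30 (adjusted p = 1.29e-08). The estimate from D20 to D22 was 0.72 ± 0.28 (adjusted p = 0.148), and over all 3 steps Cabp5 rose by 5.09 ± 0.29 (adjusted p = 1.40e-14). Of the members it had the smallest adjusted p in the joint test, 7.32e-16. Its mean went from 2.16 ± 0.966 to 73.8 ± 23.4 CPM (SD, n = 6).

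Scgn had 0.128, 0.903 and 2.70 CPM at D20, 0.504, 1.1 and 1.93 at D22, 2.08, 3.78 and 6.42 at D25, and 8.11, 23.2 and 29.5 at D30. Of neighbouring timepoints D20 and D22 alone overlapped, and the highest organoid of D20 lay within the range of D25. Scgn rose by 1.71 ± 0.40 from D22 to D25 (adjusted p = 0.00519) and by 2.51 ± 0.37 from D25 to D30 (adjusted p = 3.48e-05). The first of these calls was lost when D22 replicate 1, 2 or 5 or D25 replicate 4 or 6 was left out, with estimates of 1.48 to 1.70 and adjusted p of 0.0101 to 0.0213, and the second held without any 1 organoid.

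The windows of Cabp5 and Scgn are shown together because these genes rose in the same steps. That of Cabp5 is on the plus strand and that of Scgn on the minus strand.

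Cabp5, chr7:13397905-13398204: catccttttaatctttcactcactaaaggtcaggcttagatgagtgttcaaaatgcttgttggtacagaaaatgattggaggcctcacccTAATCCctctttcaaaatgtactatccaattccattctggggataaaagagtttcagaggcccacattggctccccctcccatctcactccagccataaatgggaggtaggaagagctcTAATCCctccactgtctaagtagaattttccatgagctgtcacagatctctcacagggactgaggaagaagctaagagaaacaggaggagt
Scgn, chr13:23991165-23991464: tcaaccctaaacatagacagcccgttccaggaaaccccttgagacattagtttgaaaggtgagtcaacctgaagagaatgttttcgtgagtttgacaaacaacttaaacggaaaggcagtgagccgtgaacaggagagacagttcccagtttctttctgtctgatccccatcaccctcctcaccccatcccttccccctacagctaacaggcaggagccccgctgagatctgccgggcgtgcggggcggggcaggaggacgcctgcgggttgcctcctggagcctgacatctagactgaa

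The Cabp5 window held TAATCC at -160 and at -41, the only member window with more than 1 match to it, and its GC content was 44.7%, the lowest of the 8. The Scgn window held none of the 3 motifs, with a GC content of 54.7%.

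**Figure D2:**
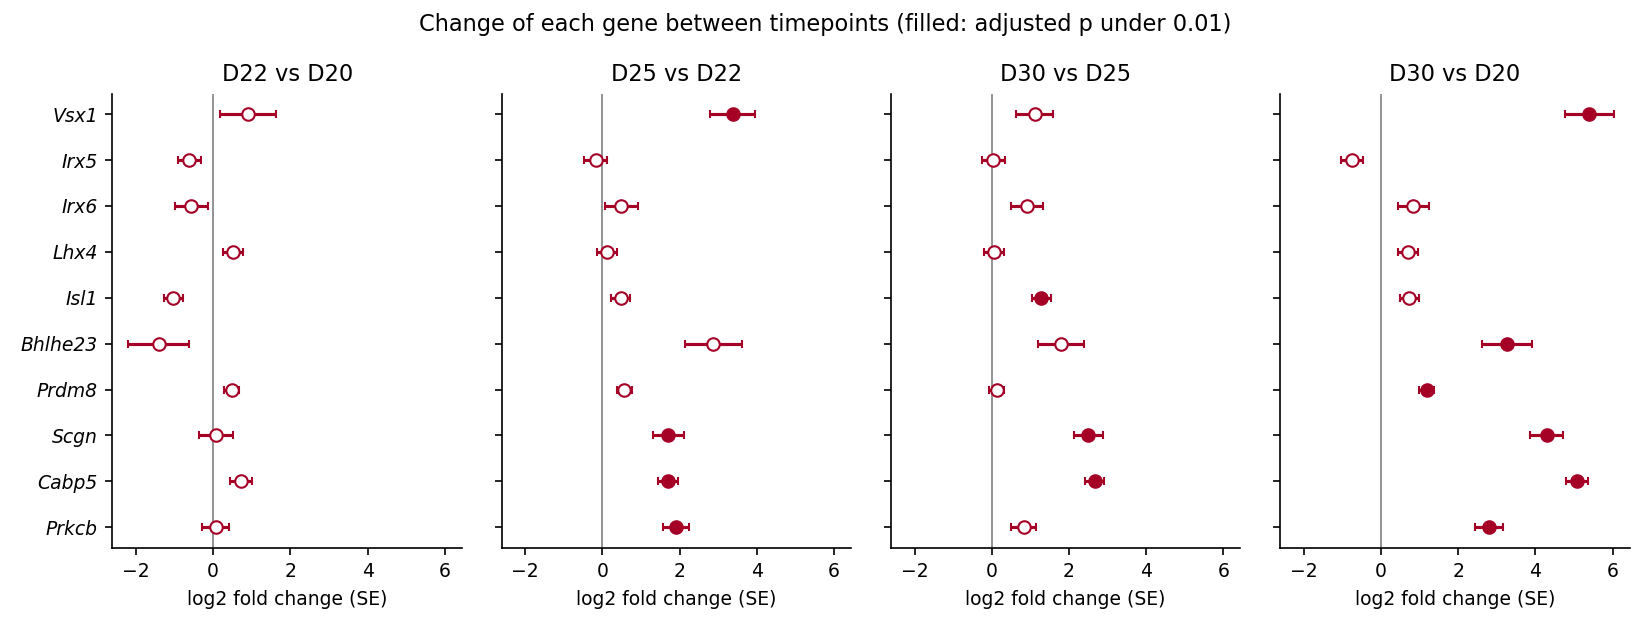
Log2 fold change (x axis, bars are SE) of each gene (rows) for the 3 steps and for D30 against D20, with filled points at an adjusted p below 0.01. Of the 3 steps, Scgn and Cabp5 are filled at both later ones, Vsx1 and Prkcb at D25 against D22 and Isl1 at D30 against D25, and for D30 against D20 6 genes are filled.

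Prkcb (ENSMUSG00000052889, chr7:122288751-122634402, plus strand) encodes protein kinase C beta, a signalling kinase found in subsets of cone bipolar cells and widely in neurons of the forebrain. Its lowest, median and highest organoids were at 2.22, 5.93 and 15.4 CPM at D20, 3.96, 7.70 and 11.4 at D22, 21, 22.3 and 52.5 at D25, and 15.8, 48.4 and 77.2 at D30. The split lay between D22 and D25, and D25 and D30 overlapped. Prkcb rose by 1.91 ± 0.35 from D22 to D25 (adjusted p = 0.000481), and the change from D25 to D30 was 0.83 ± 0.33 (adjusted p = 0.151).

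The highest organoid of D25, replicate 1, also had the highest sum of cortex type neuron genes at that time (391 CPM), and the lowest of D30, replicate 6, had the lowest sum (8.65 CPM). Of the 7 genes of that list, Neurod2 and Neurod6 rose from D22 to D25, the step at which Prkcb rose, and none was called from D20 to D30. Without D25 replicate 1 the rise of Prkcb from D22 to D25 was 1.63 (adjusted p = 0.00215), and without D30 replicate 6 that from D20 to D30 was 2.99 (adjusted p = 1.35e-08). In D25 replicate 2, where the list summed to 10.2 CPM, Prkcb was at 21.1 CPM, above all organoids of D22. At D20, replicate 6 had the highest sum, 237 CPM, and Prkcb at 4.87 CPM. The part of cortex type neurons in the level of Prkcb was not tested.

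**Figure D3:**
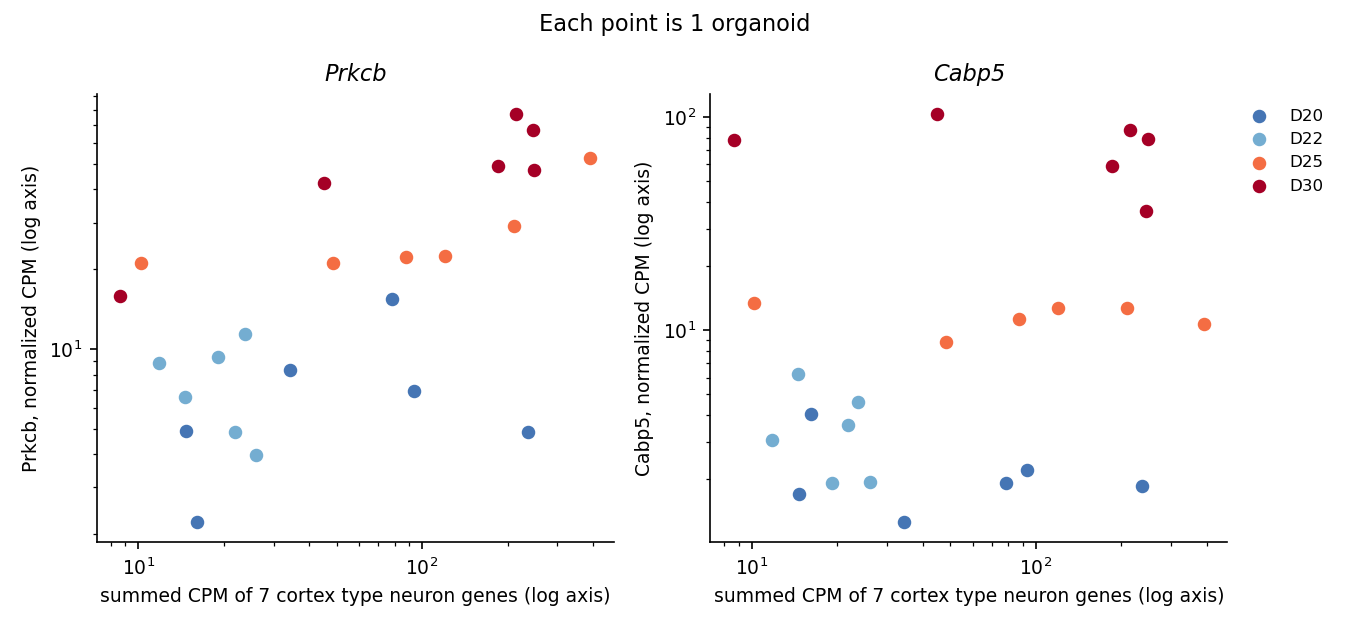
Prkcb (left) and Cabp5 (right) in normalized CPM against the summed CPM of 7 cortex type neuron genes, both axes logarithmic, 1 point per organoid coloured by timepoint. At D30 the organoid with the lowest sum, 8.65 CPM, has the lowest Prkcb (15.8 CPM) but not the lowest Cabp5.

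The promoter window of Prkcb, on the plus strand, is shown for its repeated E-box.

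Prkcb, chr7:122288875-122289174: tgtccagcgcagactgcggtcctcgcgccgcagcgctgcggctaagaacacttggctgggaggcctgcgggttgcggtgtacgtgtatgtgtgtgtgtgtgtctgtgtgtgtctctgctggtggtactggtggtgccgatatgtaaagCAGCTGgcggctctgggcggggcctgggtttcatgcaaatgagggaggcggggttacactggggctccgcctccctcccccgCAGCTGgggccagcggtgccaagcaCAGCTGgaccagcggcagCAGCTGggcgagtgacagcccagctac

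CAGCTG stood at -102, -20, 6 and 24 in it, 4 matches against 2 in Vsx1 and 1 each in Isl1 and Prdm8.

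Levels between genes were compared per kb of exon. At D20 the order of mean normalized CPM per kb was led by Isl1 (5.83), Lhx4 (2.70) and Prdm8 (1.6), and Vsx1 was last (0.0656). At D30 it was led by Cabp5 (29.2), Scgn (13.2) and Isl1 (9.68), followed by Prkcb (6.52), Lhx4 (4.36), Prdm8 (3.64), Vsx1 (2.85), Irx6 (0.970), Bhlhe23 (0.877) and Irx5 (0.609). Neighbours in the order overlapped in nearly all cases: 9 of 9 at D20 and D25, and 8 of 9 at D22 and D30. Only Irx5 above Irx6 at D22 and Vsx1 above Irx6 at D30 were apart.

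**Figure D4:**
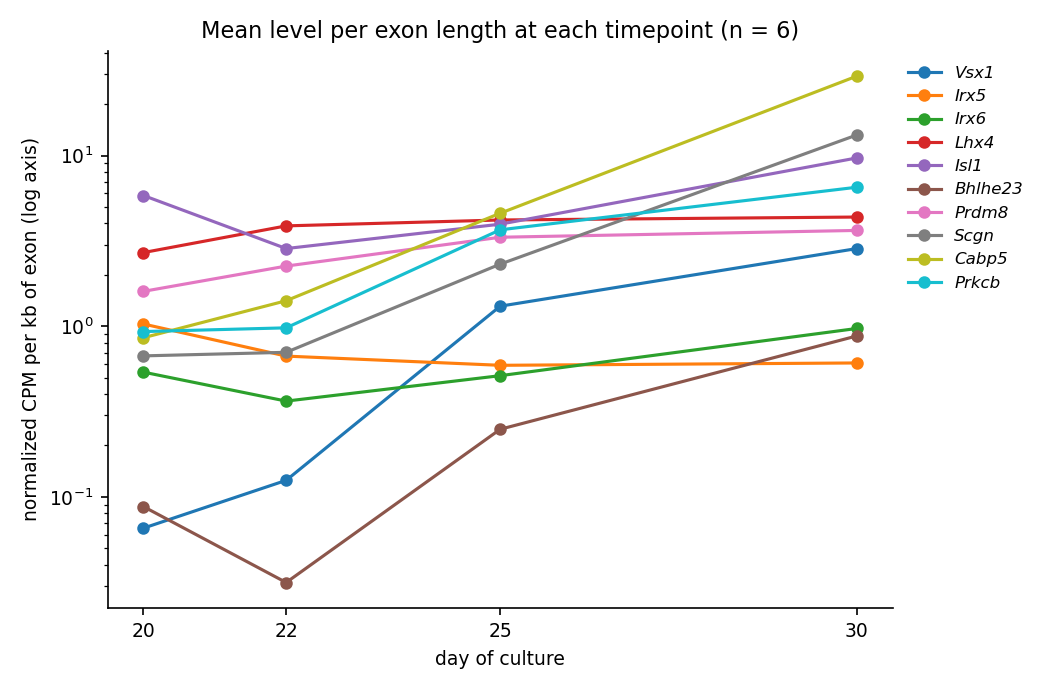
Mean normalized CPM per kb of exon of each gene (y axis, logarithmic, n = 6, no error drawn) by day of culture. Transcription factors Isl1, Lhx4 and Prdm8 lead at D20, and Cabp5 (29.2) and Scgn (13.2) lead at D30.

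The spread between organoids of a timepoint was also read for each gene. The median coefficient of variation over the 10 genes was 48.3%, 41.3%, 32.9% and 34.4% in order of time, against 19.1%, 21.2%, 17.8% and 21.8% over annotated genes tested (a description, with no test). The annotated genes were not matched to the members for level, and few counts alone raise this measure. Members with few counts were among the most variable, such as Vsx1 at D22 (123%). At D30, replicate 1 was the lowest organoid for 6 members (Lhx4, Isl1, Bhlhe23, Irx6, Scgn and Cabp5) and replicate 5 the highest for 5 (Lhx4, Isl1, Bhlhe23, Irx5 and Scgn).

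The sum over the 10 genes was 172 CPM in D30 replicate 1, and 221 to 287 CPM in the other 5 organoids. Replicate 1 also had the highest Müller glia sum of the D30 organoids, 4101 CPM against 1152 to 2924, and the lowest photoreceptor sum, 2254 CPM against 3007 to 4041. Replicate 5, with the highest sum of the 10 genes, had the highest photoreceptor sum (4041 CPM) and the second highest Müller glia sum (2924 CPM). Replicate 6 had the lowest Müller glia sum (1152 CPM), with 3798 CPM of photoreceptor genes and 221 CPM of the 10 genes. The part of cell composition in these differences was not tested. Without replicate 1, 8 members were called from D20 to D30, the 6 named above with Lhx4 and Isl1 added (adjusted p = 0.00621 for Isl1).

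Other genes of bipolar cells, 44 in 4 lists, were set beside the 10. Of the 41 tested, 22 rose and 10 fell from D20 to D30 (median log2 fold change 1.25). Among those that rose, Grm6, Sebox, Neto1 and Grik1 averaged 0.0575 to 0.562 CPM at D20 and 0.219 to 0.58 CPM at D22. They passed the count filter through the later groups, so the counts of rises here and in their lists are not independent of that filter. Of annotated genes 25.1% were higher and 16.7% lower, and of all features 13.9% and 13.0%. The same shares stand beside the counts of the 4 lists below. In the step to D25, 8 rose and 6 fell, a total of 14 that ranged from 7 (without D25 replicate 4) to 16 when 1 organoid was left out. It was 8 without D22 replicate 1, D25 replicate 1 or D25 replicate 6, and 9 without D22 replicate 5. In this step 7.33% of annotated genes were higher and 2.92% lower, against 3.08% and 2.19% of all features.

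The 12 further fate factors moved mostly down. From D20 to D30, 7 fell and 1 rose (Etv1), with a median of -1.04. Among those that fell were Prdm1, which favours photoreceptor over bipolar fate (-2.52 ± 0.15, adjusted p = 3.37e-14), and Neurod4, a bHLH factor of bipolar precursors (-1.80 ± 0.16, adjusted p = 1.06e-10). Bhlhe23 and Prdm8, from the same families, rose over this time.

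The ON signalling complex, which couples mGluR6 to its channel, moved mostly up: of 12 tested genes 10 rose and 1 fell (Rgs11), with a median of 1.37. Grm6, which encodes mGluR6, went from 0.0575 ± 0.110 to 12.6 ± 5.37 CPM (SD, n = 6; log2 fold change 7.61 ± 0.74, adjusted p = 1.45e-09). At D20 Grm6 was on average under the level of 3 counts, and at D22 it averaged 0.326 CPM. Its estimate thus starts from very few reads, and it passed the count filter through the later groups. Trpm1, the channel, rose by 4.15 ± 0.52 (adjusted p = 1.59e-07), and Rgs9bp, an anchor of RGS proteins that photoreceptors also express, by 3.45 ± 0.22 (adjusted p = 1.72e-13).

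Of 5 rod bipolar markers 4 rose and 1 fell (Pcp2). Car8, a carbonic anhydrase-related protein, rose by 4.96 ± 0.38 (adjusted p = 1.18e-11), the homeodomain factor Sebox by 4.21 ± 0.73 (adjusted p = 2.59e-05) and Prkca, the protein kinase C alpha used to stain rod bipolar cells, by 2.38 ± 0.14 (adjusted p = 3.94e-14). Sebox averaged 0.101 ± 0.133 CPM at D20, under the level of 3 counts, and 2.02 ± 1.1 at D30 (SD). Its estimate thus starts from very few reads. Car8 averaged 0.317 ± 0.216 CPM at D20 and 10.1 ± 2.19 at D30. Prkca rose in the same step as Prkcb, by call, from D22 to D25, and again from D25 to D30.

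Of 12 tested cone bipolar markers 7 rose and 1 fell (Tacr3). The kainate receptor subunit gene Grik1 rose by 3.85 ± 0.67 (adjusted p = 3.08e-05), its auxiliary protein gene Neto1 by 4.08 ± 0.75 (adjusted p = 5.47e-05) and the potassium channel gene Kcng4 by 3.86 ± 0.48 (adjusted p = 1.11e-07). At D20 these averaged 0.562, 0.391 and 1.16 CPM. For D25 against D22, 7 of the 12 had an unadjusted p below 0.05. None of the 12 was called in this step. Among the 7, Neto1 was at 2.61 ± 0.80 (adjusted p = 0.0302) and Grik1 at 2.39 ± 0.66 (adjusted p = 0.0164). Kcng4 was at 1.34 ± 0.44 (adjusted p = 0.0467) and Lrrtm1 at 1.26 ± 0.34 (adjusted p = 0.0135). Tacr3, also among the 7, went the other way, at -0.91 ± 0.26 (adjusted p = 0.021).

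**Figure D5:**
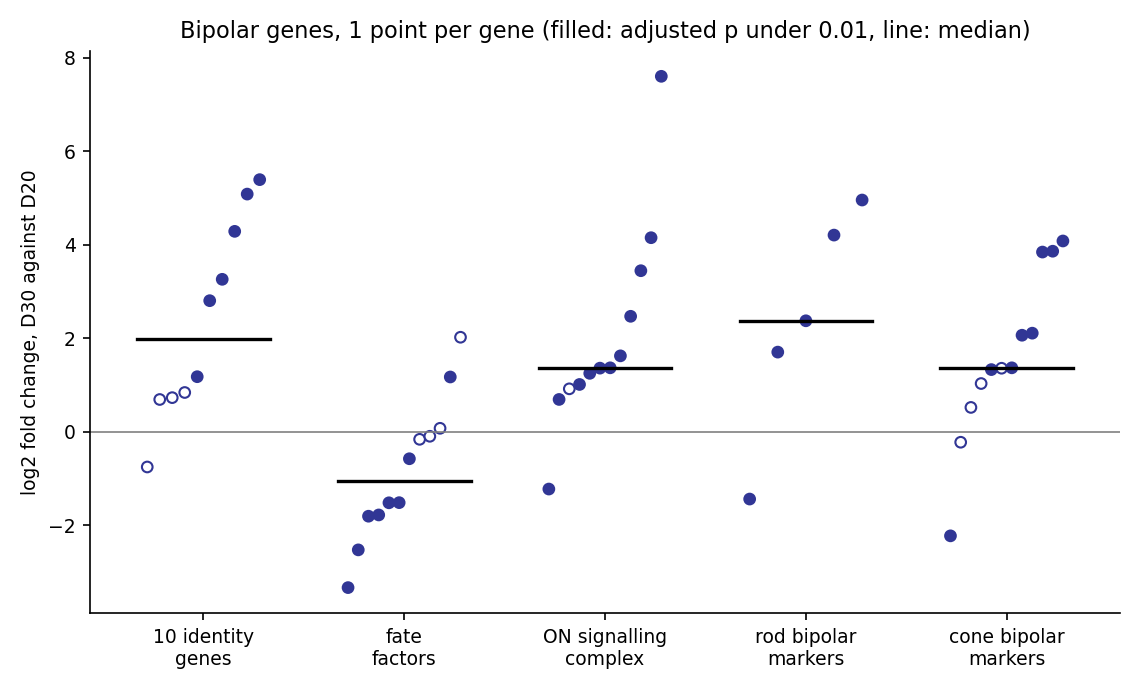
Log2 fold change of D30 against D20 (y axis) for the 10 identity genes and 4 lists of other bipolar genes, 1 point per tested gene, filled at an adjusted p below 0.01, with the median as a line. The median is 1.99 for the identity genes, -1.04 for fate factors, 1.37 for the ON complex, 2.38 for rod bipolar and 1.37 for cone bipolar markers.

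Genes with the most similar course over the 24 organoids were sought among 10954 annotated genes, by the root mean square difference of centred log2 CPM. Cabp5 lay nearest to Lrrc2 (0.633), Rgs9 (0.709) and Cav1 (0.736), where the median gene was at 2.01. Scgn lay nearest to Slc24a4 (0.752), Selenop (0.827) and Car10 (0.871), and Prkcb to Brinp1 (0.420), 2900011O08Rik (0.426) and Agap2 (0.505).

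Isl1 lay nearest to Gpr179 (0.491), a scaffold protein gene of the ON signalling complex, which averaged 12.8, 8.84, 9.29 and 32.9 CPM at D20, D22, D25 and D30 and was likewise lower at D22 and D25 than at D20 and D30. Mcur1 (0.527) and Nim1k (0.539) followed. Vsx1 lay nearest to Fgf2 (1.47), Kcnj14 (1.5) and Pde6a (1.63), and Bhlhe23 to Cds1 (1.09), Rgs7bp (1.12) and Eepd1 (1.17).

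The distance grows with a gene's own spread over the organoids, so distances are not compared between members. Prdm8 lay nearest to Abhd16a (0.247), Rnf157 (0.279) and Ogdh (0.286), and Lhx4 to Gm26582 (0.347), Cox16 (0.347) and Egflam (0.355). Irx5 lay nearest to Rfc4 (0.376), Brip1os (0.378) and Dcaf4 (0.384), and Irx6 to Snx8 (0.663), Kcnab2 (0.677) and Klhl36 (0.688). For Irx6 the median gene was at 0.925.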

How the data were processed

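RNA libraries of 24 single organoids were analysed, 6 per timepoint, grouped by their labels. The authors trimmed reads with cutadapt, aligned them with hisat2 to GRCm38/mm10, assembled transcripts with stringtie (1.3.3) and counted reads per feature with htseq-count (0.6.1). The libraries were strand-specific, and whether the counting used strand is not given in the sources used here. The deposited values are raw counts for 126602 features. Summary lines were left out.

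Features averaging 10 or more normalized counts were tested in one edgeR (4.0.16) quasi-likelihood fit of the 24 organoids, with TMM, Benjamini-Hochberg adjustment over 46949 features and a threshold of 0.01. SE were derived from the test statistic. The common biological coefficient of variation was 0.385, and counting intervals and floors cover counting error only. DESeq2 (1.42.0), other scalings, filters and fits and leaving out each organoid were alternatives. No organoid pair of a timepoint agreed within sampling noise (60 pairs). Replicate numbers were not used to pair organoids in the main fit, since the labels give no pairing. Scripts were tested on simulated data.

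Symbols and positions came from GENCODE M21 (46091 identifiers matched) and promoters from RefSeq. Genes named outside the set were, in each list, the 3 with the largest change from D20 to D30 among those called (or all called), those said to differ from the rest of a list, annotation neighbours of members, and the 3 most similar in course, out of genes averaging 100 or more normalized counts. Rax, Crx, the cholinergic genes, Lrrtm1, Neurod2 and Neurod6 were named after their values were seen. Some genes that this rule would include are not reported here. The members and lists were chosen with earlier results of these data known.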

Additional observations from a re-analysis of the deposited data

Results flagged for a closer look

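Of 40 groups of 6 organoids (10 genes at 4 timepoints), 3 held an organoid far from the other 5 by Dixon's criterion, where chance flags about 1 in 20 groups. At D25, replicate 1 was high for Prkcb, at 52.5 CPM with the next organoid at 29.0 CPM, and for Bhlhe23, at 1.27 CPM with the next at 0.671 CPM. At D20, replicate 2 was high for Cabp5, at 4.03 CPM with the next at 2.2 CPM.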

How the results depend on the processing

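Of 63 counts of calls recomputed under the alternative settings, 55 stayed within 1.5 times the reported count and 8 moved. The count of members called from D20 to D22 went from 0 to 1 (Isl1, lower) with DESeq2, with no filter on low counts and at an adjusted p below 0.05. The count called for the change from D25 to D30 against that from D20 to D25 went from 0 to 1 with DESeq2, with DESeq2 size factors and with no filter, and to 2 at an adjusted p below 0.05 and when only the timepoints compared were fitted. Of 435 recomputed fold changes and mean levels of members, 2 fold changes turned sign, both near 0 and short of the threshold. D30 against D25 was -0.011 for Irx5 with annotated genes only and -0.0258 for Lhx4 with the replicate number as a block.

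When each organoid was left out in turn, the count of members called ranged from 0 to 1 for D22 against D20 and for the late against the early change, and that of other bipolar genes from D22 to D25 from 7 to 16. Sign changes stayed short of the threshold: D22 against D20 ranged from -0.17 to 0.59 for Scgn and from -0.11 to 0.46 for Prkcb, D30 against D25 from -0.035 to 0.22 for Lhx4 and from -0.0869 to 0.17 for Irx5, and the late against the early change from -0.10 to 1.01 for Bhlhe23 and from -0.0231 to 0.42 for Cabp5. With the replicate number as a block, 7 members were called from D20 to D30 in place of 6, since Lhx4 passed (0.74, adjusted p = 0.00959). The labels give no pairing, same-numbered organoids of different timepoints correlated at -0.0808 to 0.187 in their deviations, 1 of 36 pairs was over 0.1, and 8 of 24 organoids correlated best with their own number. DESeq2 gave no adjusted p for Bhlhe23 for D30 against D25 and for the late against the early change. Depth limited Bhlhe23 at D20 and D22 most, where 3 and 6 of 6 organoids had at most 3 counts.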

Other observations

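The lists of other cell types moved as follows from D20 to D30, where 25.1% of annotated genes were higher and 16.7% lower. All 7 progenitor genes fell, most of all Fgf15 (log2 fold change -5.32), Sfrp2 (-3.46) and Hes5 (-3.43), and 4 of 6 retina markers fell, led by Six3 (-2.15), Six6 (-1.52) and Pax6 (-1.44). Among ganglion cell genes the largest falls were those of Sncg (-4.55), Pou4f2 (-3.80) and Pou4f1 (-3.37). Of 8 photoreceptor genes 6 rose and 1 fell, with Gnat1 (10.04) and Rcvrn (7.38) among the rises. Of 6 Müller glia genes 5 rose, led by Aqp4 (4.05), Slc1a3 (3.07) and Clu (3.04).

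Of 3 tested horizontal cell genes, Onecut1 (-4.86) and Onecut2 (-1.30) fell and Calb1 (2.37) rose. Of 6 amacrine cell genes only Gad1 (1.88) was called, higher, and of 4 tested pigment epithelium genes only Mitf (1.34), higher. Of 7 cortex type neuron genes none was called in edgeR (1 had an unadjusted p below 0.05), with a median log2 fold change of 1.15. Sox2, the 1 tested gene of the cholinergic amacrine list, was not called (0.08).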
